A study of Mus musculus with 18 samples.

Results

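The LINC complex and the torsins were described in the mouse heart through 7 genes: Sun1, Sun2, Syne1, Syne2, Syne3, Tor1a and Tor1aip1. They were taken by gene symbol from a count table of 54532 genes, and all 7 passed the filter on low counts. The series sequenced poly(A) RNA of the heart apex of mice, to ask what raising lamin A or lamin C does in a dilated cardiomyopathy made by knocking down Lmna, with delivery by an adeno-associated virus (rAAV9). The 18 libraries fell into 6 groups of 3 in 2 batches, which the labels name LC and LA. Each batch had its own control group and its own group labelled Lmna shRNA, called shRNA hearts here. The last group was labelled Lmna shRNA+Lamin C in batch LC and Lmna shRNA+Lamin A in batch LA, called lamin C and lamin A hearts. Every animal carried the genotype label WT. What the controls received, the age, sex and strain of the mice, the time after injection and the promoter of each vector are not given in the sources used here. Since lamin C and lamin A stood in different batches, they were compared through the control and shRNA hearts of their own batch.

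The LINC complex is a bridge across the nuclear envelope. SUN proteins sit in the inner nuclear membrane, touch the lamina with one end and hold, in the space between the membranes, the KASH domain of a nesprin that sits in the outer membrane and reaches actin, microtubule motors or intermediate filaments. Torsins are ATPases of the same lumen that are inactive alone and are switched on by a membrane cofactor, LAP1 at the inner nuclear membrane or LULL1 in the endoplasmic reticulum. In muscle, nesprins and SUN proteins hold nuclei in place and pass contractile force to them, and lamin A and C are the lamina proteins most tied to this coupling.

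Sun1 (ENSMUSG00000036817) lies on chromosome 5, 139200637 to 139249840, plus strand, in the build mm10 that the submitters' processing notes name, and Sun2 (ENSMUSG00000042524) on chromosome 15, 79724070 to 79742536, minus strand. Syne1 (ENSMUSG00000096054), which encodes nesprin-1, spans chromosome 10, 5020917 to 5551482, minus strand. Syne2 (ENSMUSG00000063450), nesprin-2, spans chromosome 12, 75818134 to 76110926, plus strand, and Syne3 (ENSMUSG00000054150), nesprin-3, lies on the same chromosome at 104929933 to 105009809, minus strand. Tor1a (ENSMUSG00000026849), torsinA, lies on chromosome 2, 30960627 to 30967933, minus strand, and Tor1aip1 (ENSMUSG00000026466), LAP1, on chromosome 1, 156004599 to 156036480, minus strand. The values below cover the exons of each gene as a whole. For the nesprins this hides a wide range of products, since annotated coding transcripts of Syne1 ran from 2726 to 27908 bases and those of Syne2 from 440 to 21704 bases. Tor1aip1 shares 699 exonic bases with Tor1aip2, its head-to-head neighbour on the other strand, and Sun1 and Sun2 share 302 and 147 with noncoding genes on the other strand. The library kit was directional, but no source used here says whether strand entered the counting, so the counts of these 3 genes may hold reads of their neighbours.

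The DNA just before the annotated starts of Sun1 and Sun2, the SUN genes, and of Tor1a, the torsin that moved against them, is shown as an example of each role (RefSeq, GRCm38.p6, the strand of the gene). The stretches are chr5:139200387-139200636 for Sun1, plus strand, chr15:79742537-79742786 for Sun2, minus strand, and chr2:30967934-30968168 for Tor1a, minus strand. The Sun2 stretch also holds annotated exon sequence of another gene, Gm16576. Capitals mark the letters CCAAT, the core of a common promoter element, or ATTGG, the same letters on the other strand.
Sun1: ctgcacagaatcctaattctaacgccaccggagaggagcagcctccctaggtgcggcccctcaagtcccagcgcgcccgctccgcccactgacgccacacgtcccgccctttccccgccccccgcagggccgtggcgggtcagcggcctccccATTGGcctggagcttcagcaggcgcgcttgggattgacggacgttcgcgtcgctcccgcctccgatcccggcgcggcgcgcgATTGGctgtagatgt
Sun2: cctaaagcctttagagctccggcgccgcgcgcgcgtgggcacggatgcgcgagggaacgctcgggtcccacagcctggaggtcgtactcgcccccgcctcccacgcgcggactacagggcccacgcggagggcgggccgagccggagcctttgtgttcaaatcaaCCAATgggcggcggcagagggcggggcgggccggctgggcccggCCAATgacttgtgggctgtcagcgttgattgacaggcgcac
Tor1a: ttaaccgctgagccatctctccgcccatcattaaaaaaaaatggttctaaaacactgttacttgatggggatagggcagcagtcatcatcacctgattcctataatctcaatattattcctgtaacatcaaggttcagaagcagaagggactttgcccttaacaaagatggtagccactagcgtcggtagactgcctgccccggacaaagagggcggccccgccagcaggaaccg
Windows of 250 bases before the start were searched on both strands. CCAAT occurred 2 times in the Sun1 window and 2 times in that of Sun2, and 0 times in that of Tor1a. It also occurred 0 times in every window of Syne1, Syne2 and Tor1aip1, which fell with the SUN genes, and of Syne3, so these letters did not separate genes that fell from those that did not. A second annotated start of Sun1 held CCAAT 1 time and TATAAA 1 time, and one of Syne1 held TATAAA 1 time. Of all windows, 33.8% of 32851 held CCAAT. The GC box GGGCGG occurred 3 times before Sun1, 4 times before Sun2 and 2 times before Tor1a, against 32.7% of all windows that held at least 1. The E-box CACGTG (6.02% of windows), TATAAA (12.4%) and TGACGTCA (1.55%) occurred in none of these 3 windows. G and C made up 70% of the Sun1 window, 70.8% of the Sun2 window and 48.4% of the Tor1a window, against a median of 52.4%. A match of letters is a description and not a bound site.

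Libraries held 31418657 to 41259968 gene counts, and 17876 genes were tested with edgeR. Mitochondrially encoded genes took 25.4% ± 0.149 of counts (SD, n = 3) in the controls of batch LC and 14.4% ± 1.35 in its shRNA hearts, and 26.7% ± 0.326 and 14.4% ± 0.562 in batch LA. Lmna itself was not called lower in the shRNA hearts: its log2 fold change against control was 0.06 ± 0.08 (standard error, SE) for batch LC, with an edgeR adjusted p of 0.578, and 0.11 ± 0.08 for batch LA, with 0.258. With library totals it was called higher, at 0.48 for batch LC, with an edgeR adjusted p of 7.24e-05, and 0.55 for batch LA, with 1.65e-05. It held 1252 CPM ± 165 (SD, n = 3) with lamin C and 531 CPM ± 27.4 with lamin A, against 128 and 126 in the shRNA hearts. The groups are therefore called by their labels, and each direction rests on them. CPM are counts relative to library totals scaled with TMM factors, which put the bulk of genes near no change. With libraries scaled by their totals alone, the median of all genes moved up by 0.42 (log2) in shRNA against control hearts of batch LC and by 0.44 in batch LA. It moved by -0.31 for lamin C against shRNA, by -0.20 for lamin A against shRNA, by 0.11 for lamin C against control and by 0.24 for lamin A against control. Rises and falls below are therefore relative to the bulk of genes. Control library 3 of batch LC stood apart from its fellows in clock genes: it held 26.2 CPM of Arntl, which encodes the clock factor BMAL1, against 0.751 and 1.37. Its column in the deposited table is numbered 827, while the other 8 libraries of batch LC are numbered 377 to 389. Control library 3 of batch LA, numbered 826, likewise stands apart from the other libraries of its batch, numbered 774 to 791. Each batch thus has 1 control with a late number. The label places library 827 in batch LC, and it was used so. Its levels of Arntl, Clock, Syne3 and Syne1 lay within the ranges of the batch LA controls or libraries given below. Other values did not. Mitochondrially encoded genes took 25.19% of its counts, beside 25.45% and 25.44% in its fellows, while every batch LA control held at least 26.38%. Its Tor1aip1, at 123 CPM, lay below every batch LA control (at least 127) and below its fellows. Which batch it belongs to was not tested. Every comparison with the batch LC controls rests on this library. Without it, shRNA against control in batch LC called 4 of the 7 genes lower and 2 higher in place of 5 and 1 (Syne1 lost its call and Syne3 gained one), and lamin C against control called 0, as with it.

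All 10 cardiomyocyte markers stood at 1 CPM or more in every group, as the tissue label has it, and so did all 10 fibroblast, 10 endothelial and 10 macrophage markers. Their summed levels moved with the groups. The cardiomyocyte sum ran from 74937 to 78532 CPM in controls, 28642 to 33580 with shRNA and 61590 to 64039 with lamin C. In batch LA it ran from 72684 to 75100 in controls, 30850 to 32077 with shRNA and 44182 to 47478 with lamin A, so that the lamin A hearts lay between their controls and their shRNA hearts. The fibroblast sum went the other way, with 2292 to 2723 CPM in controls, 4407 to 4716 with shRNA and 2657 to 3263 with lamin C. In batch LA it ran from 2470.0 to 2735 in controls, 4215 to 4535 with shRNA and 3723 to 4124 with lamin A. The macrophage sum was 408 to 514 CPM in controls, 1624 to 1806 with shRNA and 723 to 862 with lamin C, and 457 to 491, 1556 to 1713 and 1390.4 to 1498 for the groups of batch LA in the same order. Endothelial markers summed to 1268 to 1453 CPM in controls, 804 to 949.9 with shRNA and 1153 to 1155 with lamin C, and to 1410.1 to 1515, 1002 to 1016 and 1237 to 1278 in batch LA. In such tissue RNA, fewer cells of a type and less RNA per cell cannot be told apart. The part of cell makeup in the values below was not tested.

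Per length of transcript, the 7 genes covered a wide span of levels. FPKM, the authors' value per kilobase of transcript and per unit of library size, had a median over the 18 libraries of 20.9 for Tor1aip1, 20.3 for Sun2, 6.54 for Sun1, 4.43 for Tor1a, 1.99 for Syne1, 1.47 for Syne2 and 0.855 for Syne3. The nesprin FPKM are divided by lengths of 40491 bases for Syne1 and 26726 bases for Syne2, which count every annotated exon, so a short isoform would read low on this scale. Counts per library were 82 to 294 for Syne3 and 222 to 525 for Tor1a, and from 1184 upward for the others, so Syne3 and Tor1a are the least precise. Between the highest and the lowest library, CPM differed 1.35-fold for Tor1aip1, 1.43-fold for Tor1a, 1.51-fold for Sun1, 1.53-fold for Sun2, 1.53-fold for Syne1, 1.54-fold for Syne2 and 2.51-fold for Syne3.

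**Figure D1:**
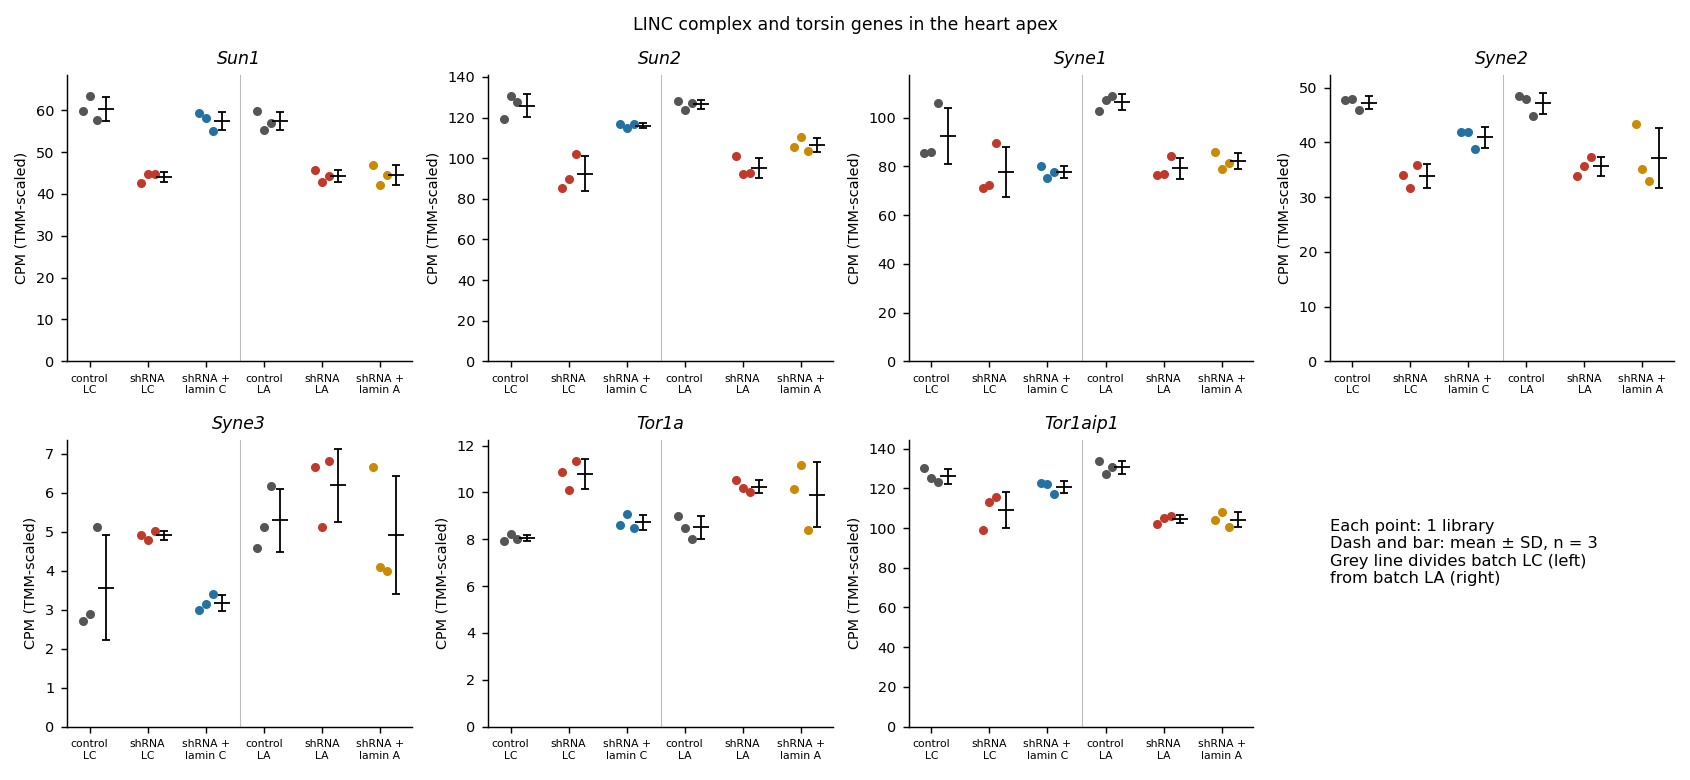
CPM scaled by TMM (vertical axis) of the 7 genes in each of the 18 libraries, by group (horizontal axis), with the mean and SD of 3 libraries beside the points. Every shRNA heart lay below every control of its batch for Sun1 and Sun2; the lamin C hearts reached 55.1 to 59.3 CPM of Sun1 while the lamin A hearts stayed at 42.1 to 46.9 (with library totals alone the fall of Sun1 and Sun2 with shRNA is near 0).

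Relative to the bulk of genes, 4 LINC genes (Sun1, Sun2, Syne1 and Syne2) and the torsin activator Tor1aip1 fell in the shRNA hearts of both batches, and Tor1a rose. Of the 7 genes, 5 were called lower in batch LC, where 29.6% of all genes tested were called lower, and 1 was called higher, where 33.3% were. In batch LA again 5 were called lower (29% of all genes) and 1 higher (32.4%). In either direction, 62.9% of all genes were called in batch LC and 61.4% in batch LA. The shRNA libraries of 5 of the 7 genes did not overlap the controls in batch LC, where 64.9% of all genes did not, and those of 6 in batch LA, where 67.8% did not. Over all genes tested, 5948 were called higher and 5299 lower in batch LC, and 10429 and 2415 with library totals, while batch LA gave 5784 and 5191, and 10637 and 2270. The median log2 fold change of the 7 was -0.25 in batch LC and -0.37 in batch LA, against 0.05 for all genes in each. These were small changes for these hearts: the median absolute log2 change of all genes was 0.50 in batch LC and 0.48 in batch LA, and each of the 7 genes lay below it in both. Scaled by library totals, 0 of the 7 were called lower in either batch, and 3 (Syne3, Tor1a and Tor1aip1) and 2 (Syne3 and Tor1a) were called higher.

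Sun1 encodes the SUN protein that also binds nuclear pore complexes. In batch LC its level was 59.7, 63.5 and 57.8 CPM in the 3 controls, against 42.7, 44.8 and 44.8 in the 3 shRNA hearts. Batch LA gave 59.8, 55.4 and 57.1 CPM in controls, against 45.8, 43.0 and 44.3. Every shRNA heart lay below every control heart of its batch. Sun1 was 26.9% lower in batch LC, a log2 fold change of -0.45 ± 0.06 (edgeR adjusted p = 6.75e-07), and 22.8% lower in batch LA, a log2 fold change of -0.37 ± 0.06 (edgeR adjusted p = 8.42e-06). With library totals it was -0.03 in batch LC and turned to 0.06 in batch LA. Less the median of all genes it was -0.50 and -0.42. A scaling shifts all genes nearly alike, so this value is the same under either scaling by construction and is no check of the fall.

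Sun2 encodes the second widely expressed SUN protein. Its controls held 119.5, 131 and 128 CPM in batch LC and its shRNA hearts 85.5, 89.9 and 102. Batch LA gave 128, 124 and 127 CPM in controls, against 101, 92.0 and 92.5 in shRNA hearts. The groups did not overlap in either batch. The log2 fold change was -0.45 ± 0.06 (edgeR adjusted p = 3.21e-06) and -0.41 ± 0.06 (edgeR adjusted p = 9.67e-06), and it was -0.02 and, turned in sign, 0.03 with library totals. The FPKM ratio of Sun2 to Sun1 within a library, which no scaling can move, averaged 2.93 ± 0.150 in controls and 2.94 ± 0.219 in shRNA hearts of batch LC, and 3.09 ± 0.0726 and 3.01 ± 0.0825 in batch LA (SD, n = 3), with libraries of the 2 groups overlapping in both. With lamin C it was 2.83 ± 0.123, and with lamin A 3.36 ± 0.270, where its range of 3.16 to 3.67 lay above every control (at most 3.14) and every shRNA heart (at most 3.09) of the batch.

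Among the nesprins, Syne1 and Syne2 fell and Syne3 did not pass the test. Syne2 held 47.8, 48.0 and 45.9 CPM in the controls of batch LC and 34.0, 31.6 and 35.9 in the shRNA hearts. In batch LA it held 48.5, 47.9 and 44.9 against 33.9, 35.6 and 37.3. All shRNA hearts lay below all controls, with log2 fold changes of -0.48 ± 0.08 (edgeR adjusted p = 3.19e-05) and -0.40 ± 0.08 (edgeR adjusted p = 0.000206), or -0.05 and a turned 0.03 with library totals. Syne1, the giant nesprin of muscle, held 85.7, 86.0 and 106 CPM in the controls of batch LC and 71.1, 72.3 and 89.5 in the shRNA hearts, so that the highest shRNA heart lay above the 2 lower controls. In batch LA it held 103, 107 and 109 CPM in controls and 76.6, 76.9 and 84.2 in shRNA hearts, with no overlap. Syne1 changed by -0.25 ± 0.09 with an edgeR adjusted p of 0.0148 in batch LC and by -0.43 ± 0.09 with 0.000246 in batch LA, turning to 0.17 and 0.01 with library totals. In batch LC the call for Syne1 rests on single libraries: the adjusted p was 0.107 without control library 3, 0.085 without shRNA library 1 and 0.071 without shRNA library 2.

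Syne3 encodes nesprin-3, which binds plectin and through it intermediate filaments. It held 2.71, 2.88 and 5.12 CPM in the controls of batch LC against 4.92, 4.80 and 5.02 in the shRNA hearts, and 4.58, 5.13 and 6.17 against 6.65, 5.12 and 6.82 in batch LA. In batch LC the 2 lower controls lay well below all shRNA hearts and the other one above them. The log2 fold change was 0.46 ± 0.22 (edgeR adjusted p = 0.074, 95% interval -0.02 to 0.95) in batch LC and 0.23 ± 0.21 (edgeR adjusted p = 0.354, 95% interval -0.23 to 0.69) in batch LA. Without control library 3 of batch LC, the one that stood apart in Arntl, the change in batch LC was 0.80 and was called (edgeR adjusted p = 0.00279), and without lamin A library 1, which enters the shared spread, it was 0.47 (edgeR adjusted p = 0.0430). With library totals Syne3 was 0.89 and 0.67 and was called higher in both batches.

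Tor1a and its activator went opposite ways. Tor1a held 7.94, 8.21 and 8.02 CPM in the controls of batch LC and 10.9, 10.1 and 11.3 in the shRNA hearts, and 9.01, 8.49 and 8.01 against 10.5, 10.2 and 10.02 in batch LA. All shRNA hearts lay above all controls. Tor1a rose by 0.42 ± 0.09 with an edgeR adjusted p of 0.000754 in batch LC and by 0.27 ± 0.09 with 0.0192 in batch LA, and stayed positive with library totals (0.84 and 0.71). In batch LA the call was lost without control library 2, control library 3 or shRNA library 1 (edgeR adjusted p = 0.0518, 0.0854 and 0.0580). Tor1aip1 held 130.4, 125 and 123 CPM in the controls of batch LC against 98.8, 113 and 116 in the shRNA hearts, and 134, 127 and 131 against 102, 105 and 106 in batch LA, again with no overlap. It was lower by TMM, with -0.21 ± 0.06 (edgeR adjusted p = 0.00342) and -0.32 ± 0.06 (edgeR adjusted p = 6.11e-05), but with library totals its sign turned to 0.22, called higher (edgeR adjusted p = 0.00246), in batch LC and to 0.12 in batch LA.

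**Figure D2:**
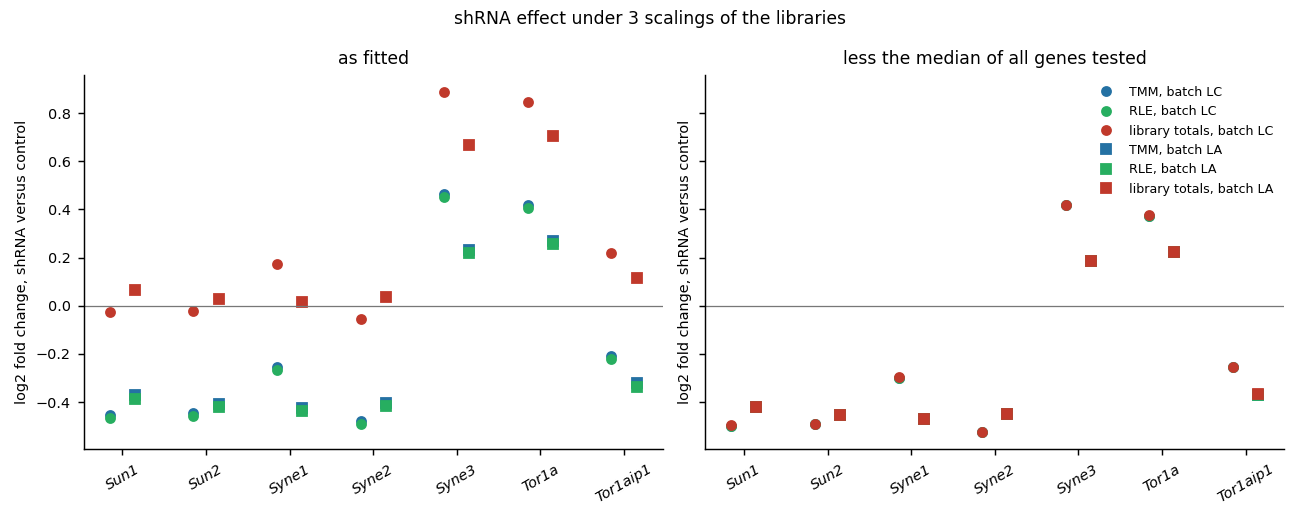
Log2 fold change of shRNA against control hearts (vertical axis) for the 7 genes (horizontal axis) under 3 scalings, as fitted at left and less the median of all genes at right; circles are batch LC and squares batch LA. With library totals Sun1, Sun2, Syne1, Syne2 and Tor1aip1 move to near or above 0. Less the median, Sun1 stands at -0.50 and -0.42, and the 3 scalings coincide by construction, since a scaling shifts all genes nearly alike.

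The relation between the torsin and its activator does not depend on the scaling. The FPKM of Tor1aip1 over that of Tor1a in the same library averaged 5.78 ± 0.243 in the controls of batch LC and 3.75 ± 0.393 in the shRNA hearts (SD, n = 3). In batch LA it averaged 5.68 ± 0.305 and 3.76 ± 0.174. The lowest control ratio was 5.62 in batch LC and 5.48 in batch LA, and the highest shRNA ratio was 4.13 and 3.90. With lamin C the ratio was 5.10 ± 0.136, with its lowest library at 4.97, above every shRNA heart of the batch. With lamin A it was 3.92 ± 0.432, and its range of 3.56 to 4.398 overlapped that of the shRNA hearts, from 3.57 to 3.90. An exact permutation test of 3 libraries against 3 cannot go below p = 0.10, so these ratios are given without one.

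No difference of the shRNA effect between the batches was detected in the 7 genes. For the difference of the shRNA effect between batch LC and batch LA, edgeR called 0 of the 7 genes, with 0 at an unadjusted p under 0.05 and 0 by DESeq2, where 0.00559% of all genes were called. The difference for Sun1 had a 95% interval of -0.25 to 0.09, for Sun2 of -0.23 to 0.15, for Syne1 of -0.09 to 0.43 and for Syne3 of -0.43 to 0.90 on the log2 scale.

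Hearts with lamin C differed from the shRNA hearts of their batch in 6 of the 7 genes. Sun1, Sun2, Syne2 and Tor1aip1 rose (4 called higher, where 25.7% of all genes were) and Syne3 and Tor1a fell (2 called lower, where 28.4% were). In either direction 54.1% of all genes were called. The groups did not overlap in 6 of the 7, against 60.4% of all genes. The median of the 7 was 0.14 and that of all genes -0.04. With library totals 0 were called higher and 4 lower, and over all genes 2337 higher and 9213 lower in place of 4592 and 5070. Sun1 held 59.3, 58.1 and 55.1 CPM with lamin C, inside or next to the range of its controls and above all shRNA hearts (0.38 ± 0.06, edgeR adjusted p = 8.01e-06, and 0.07 with library totals). Sun2 held 117, 115 and 117 CPM (0.33 ± 0.06, edgeR adjusted p = 0.000153, and 0.01 with library totals). Syne2 held 41.9, 42.0 and 38.8 CPM (0.27 ± 0.08, edgeR adjusted p = 0.00723, turning to -0.04 with library totals). These 3 genes lay above every shRNA heart.

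Syne1 did not follow them. It held 80.3, 75.4 and 77.7 CPM with lamin C, within the range of the shRNA hearts, and its change was 0.00 ± 0.09 (edgeR adjusted p = 0.982, 95% interval -0.18 to 0.19), or -0.31 and called lower with library totals. Syne3 held 2.997, 3.14 and 3.40 CPM, below all shRNA hearts, with -0.63 ± 0.22 (edgeR adjusted p = 0.0216). That call was lost without lamin C library 1 (edgeR adjusted p = 0.0630) or library 2 (edgeR adjusted p = 0.0565). Tor1a held 8.63, 9.06 and 8.46 CPM, between its controls and its shRNA hearts, with -0.30 ± 0.09 (edgeR adjusted p = 0.00964). Tor1aip1 held 123, 122 and 117 CPM with lamin C and rose by the least, 0.14 ± 0.06 (edgeR adjusted p = 0.0403). Its call was lost without shRNA library 1, lamin C library 1 or lamin C library 2 (edgeR adjusted p = 0.252, 0.0998 and 0.0966), and its sign turned to -0.17, called lower, with library totals.

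Hearts with lamin A showed little of this. Against the shRNA hearts of batch LA, edgeR called 0 of the 7 genes, where 29.8% of all genes were called, 16.1% higher and 13.7% lower. The groups did not overlap in 1 of the 7, against 45.2% of all genes. Sun2 alone had an unadjusted p under 0.05, and DESeq2 called it higher. The median of the 7 was 0.00, as was that of all genes. With library totals 4 of the 7 (Sun1, Syne3, Tor1a and Tor1aip1) were called lower, and over all genes 1280 were called higher and 6205 lower in place of 2881 and 2449. Sun1 held 46.9, 42.1 and 44.4 CPM with lamin A against 45.8, 43.0 and 44.3 with shRNA alone, a change of 0.00 ± 0.06 (edgeR adjusted p = 0.973, 95% interval -0.12 to 0.12). Sun2 held 106, 110.3 and 103 CPM, above all 3 shRNA hearts and below all 3 controls, with 0.16 ± 0.06 (edgeR adjusted p = 0.0545, turning to -0.04 with library totals). That p sat at the threshold: Sun2 was called without control library 1 or 3 or shRNA library 1 or 3 of batch LC or shRNA library 1 of batch LA, with edgeR adjusted p of 0.0495, 0.0498, 0.0386, 0.0220 and 0.0287.

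The other lamin A values lay largely on those of the shRNA hearts. Syne1 held 85.8, 79.1 and 81.5 CPM (0.05 ± 0.09, edgeR adjusted p = 0.696), and Tor1aip1 held 104, 108 and 100.3 CPM (0.00 ± 0.06 below the shRNA hearts, edgeR adjusted p = 0.967). Syne2 held 43.4, 35.1 and 32.9 CPM, Syne3 6.67, 4.09 and 3.99 CPM, and Tor1a 10.1, 11.2 and 8.41 CPM. In each of these last 3 genes, 1 lamin A library lay apart from its fellows: library 1 was high for Syne2 and for Syne3, and library 3 was low for Tor1a. Their changes against shRNA were 0.06 ± 0.08, -0.34 ± 0.21 and -0.05 ± 0.09, with edgeR adjusted p of 0.626, 0.240 and 0.733. Without lamin A library 1, Syne3 was at -0.62 and was called (edgeR adjusted p = 0.0354).

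**Figure D3:**
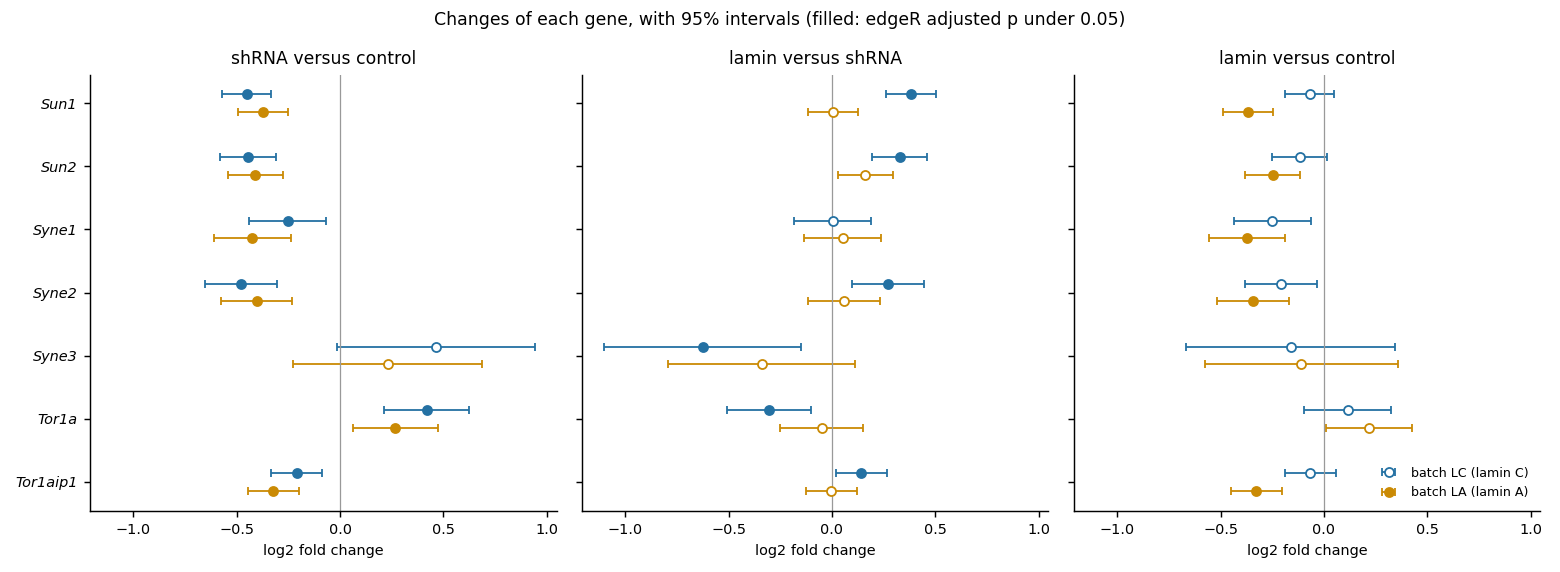
Log2 fold changes by TMM (horizontal axes) with 95% intervals for the 7 genes in 3 kinds of comparison, blue for batch LC with lamin C and yellow for batch LA with lamin A; filled points had an edgeR adjusted p under 0.05. In the middle panel Sun1 stands at 0.38 for lamin C and 0.00 for lamin A (0.07 and -0.20 with library totals), and in the right panel 5 genes are filled for lamin A and none for lamin C. Tested directly, the difference between the lamins in the right panel was called for Sun1 and Tor1aip1 only.

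Set against control hearts, the lamin C hearts were not called different in any of the 7 genes, whereas the lamin A hearts were in 5. Tested directly, the difference from control between the lamins was called for only 2 of these 5, Sun1 and Tor1aip1. For Sun2, Syne1 and Syne2 it was 0.13, 0.12 and 0.14 (edgeR adjusted p = 0.359, 0.564 and 0.476). For lamin C against control, edgeR called 0 of 7, where 15% of all genes were called, 8.87% higher and 6.18% lower; 2 genes (Syne1 and Syne2) had an unadjusted p under 0.05, and DESeq2 called 1 (Syne1) lower. Syne1 stood at -0.25 ± 0.09 (edgeR adjusted p = 0.0556) and Syne2 at -0.21 ± 0.08 (edgeR adjusted p = 0.0893), and the lamin C libraries of 5 genes did not overlap the controls, where 30.1% of all genes did not. Without control library 3, Syne1 was at -0.14 (edgeR adjusted p = 0.276), and it was called without control library 1 or 2 or shRNA library 3 of the batch (edgeR adjusted p = 0.0474, 0.0425 and 0.0209). Syne2 was called without lamin A library 1, which enters the shared spread (edgeR adjusted p = 0.0267). Over all genes 1585 were called higher and 1105 lower, and 2879 and 293 with library totals. Sun1 stood at -0.07 ± 0.06 (95% interval -0.19 to 0.05, turning to 0.04 with library totals) and Tor1aip1 at -0.07 ± 0.06 (95% interval -0.19 to 0.06, turning to 0.05).

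For lamin A against control, Sun1, Sun2, Syne1, Syne2 and Tor1aip1 were lower, 5 of 7, where 22.1% of all genes were called lower, 24.1% higher and 46.2% in either direction. The groups did not overlap in 5 of the 7, against 56% of all genes. Their log2 fold changes were -0.37 ± 0.06 for Sun1 (edgeR adjusted p = 1.85e-05), -0.25 ± 0.06 for Sun2 (edgeR adjusted p = 0.00251), -0.37 ± 0.09 for Syne1 (edgeR adjusted p = 0.00133), -0.34 ± 0.08 for Syne2 (edgeR adjusted p = 0.00148) and -0.33 ± 0.06 for Tor1aip1 (edgeR adjusted p = 9.37e-05). With library totals these 5 kept their sign, from -0.14 for Syne1 to -0.01 for Sun2, and 0 were called lower, while Tor1a (0.22 ± 0.09 by TMM, edgeR adjusted p = 0.0686) was called higher, as it was without lamin A library 3 (0.33, edgeR adjusted p = 0.00776). Over all genes 4314 were called higher and 3952 lower, and 7676 and 1760 with library totals. The median of the 7 was -0.33, against 0.02 for all genes.

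The difference between the lamins was tested directly for each gene. The lamin effect on Sun1, lamin C minus lamin A, was 0.38 ± 0.08 (edgeR adjusted p = 0.0021), the only 1 of the 7 called, where 8.84% of all genes were called higher, 9.9% lower and 18.7% in either direction. It kept its call without any single library and with library totals. Counted from each batch's controls, Sun1 was 0.30 ± 0.08 higher with lamin C than with lamin A (edgeR adjusted p = 0.0141) and Tor1aip1 0.26 ± 0.08 higher (edgeR adjusted p = 0.0347), 2 of 7, where 7.29% of all genes were called higher, 7.35% lower and 14.6% in either direction. With library totals neither was called, and the call of Tor1aip1 was lost in 8 of 18 fits that each left out 1 library, where its edgeR adjusted p ran from 0.0137 to 0.0922. For the other 6 genes the difference of the lamin effect was not called: it was 0.17 for Sun2 (95% interval -0.02 to 0.36), 0.21 for Syne2 (95% interval -0.03 to 0.46) and -0.25 for Tor1a (95% interval -0.54 to 0.03). Sun2 was called without shRNA library 3 of batch LC (0.24, edgeR adjusted p = 0.0389) and Syne2 without lamin A library 1 (0.34, edgeR adjusted p = 0.0151). Lmna counts were themselves higher with lamin C than with lamin A, so the kind of lamin, its amount and the batch cannot be told apart here.

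In the order of group means by TMM, Sun1 fell into a high and a low set: 60.3 CPM ± 2.90 in the controls of batch LC, 57.5 ± 2.21 with lamin C and 57.4 ± 2.25 in the controls of batch LA, then 44.5 ± 2.39 with lamin A, 44.4 ± 1.43 with shRNA in batch LA and 44.1 ± 1.22 with shRNA in batch LC (SD, n = 3). Neighbours within a set differed by no more than their SD, and the step between the sets was 12.97 CPM. Sun2 means were 126 ± 2.22 and 126 ± 5.79 in the controls, 116 ± 1.14 with lamin C, 106 ± 3.52 with lamin A, and 95.2 ± 5.14 and 92.4 ± 8.53 with shRNA. Each lamin group lay between the controls and the shRNA hearts of its own batch without overlap. Over all genes, 30.1% (lamin C) and 56% (lamin A) did not overlap control, and 60.4% and 45.2% did not overlap shRNA. The step from lamin C to lamin A crosses batches. For Sun2 the difference between the lamins was not called, whether counted from shRNA (edgeR adjusted p = 0.201) or from control (edgeR adjusted p = 0.359). Scaled by library totals these orders were not seen: Sun1 means were 52.5 and 49.9 CPM in controls, 51.5 and 52.1 with shRNA, 54.1 with lamin C and 45.5 with lamin A, and Sun2 means lay between 108 and 112 in all 6 groups.

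Other genes of the pathway were counted from lists chosen with earlier results in view. Of 5 other torsin genes (Tor1b, Tor2a, Tor3a, Tor4a and the second activator, Tor1aip2), 4 rose and 0 fell in the shRNA hearts of each batch, where 33.3% of all genes were called higher in batch LC and 32.4% in batch LA, and Tor1b did not pass the test. With library totals, which call most genes higher, 5 of 5 were called higher in each batch, and without control library 3 of batch LC 3 were in that batch. Tor3a, a torsin known to be induced by interferon, held 15.5, 14 and 18.6 CPM in the controls of batch LC and 38.7, 39.2 and 37.8 in the shRNA hearts (1.27 ± 0.09, edgeR adjusted p = 4.21e-10), and its change was 1.24 ± 0.09 in batch LA. With lamin C it fell to 21.9, 20.8 and 19.4 CPM (-0.90 ± 0.09) and with lamin A to 26.8, 27.02 and 28.7 (-0.47 ± 0.09). Tor1aip2, which encodes LULL1, held 83.2, 81.9 and 70.7 CPM in the controls of batch LC and 116, 117 and 117 in the shRNA hearts (0.57 ± 0.06, edgeR adjusted p = 4.37e-08). It fell with lamin C (-0.48 ± 0.06) and with lamin A (-0.44 ± 0.06), to 83.1 to 83.9 and 81.1 to 85.5 CPM.

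Thus Tor1aip1 and Tor1aip2, head to head on chromosome 1, moved apart in the shRNA hearts. Within a library the FPKM of Tor1aip2 over Tor1aip1 was 0.365 ± 0.0248 in controls, 0.630 ± 0.0504 with shRNA and 0.406 ± 0.0127 with lamin C in batch LC, and 0.324 ± 0.0193, 0.633 ± 0.0247 and 0.469 ± 0.0247 with lamin A in batch LA (SD, n = 3). No shRNA library overlapped a control or lamin library of its batch in this ratio. Tor2a rose by 0.34 ± 0.11 and 0.39 ± 0.11 and Tor4a by 0.34 ± 0.12 and 0.33 ± 0.11 in the shRNA hearts of batches LC and LA. Tor4a fell with lamin C (-0.44 ± 0.11, edgeR adjusted p = 0.00306), and with lamin A stood at 0.06 ± 0.11 against shRNA (edgeR adjusted p = 0.738). Against control, 1 of the 5 (Tor3a) was called higher with lamin C, where 8.87% of all genes were, and 5 of 5 with lamin A, where 24.1% were.

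**Figure D4:**
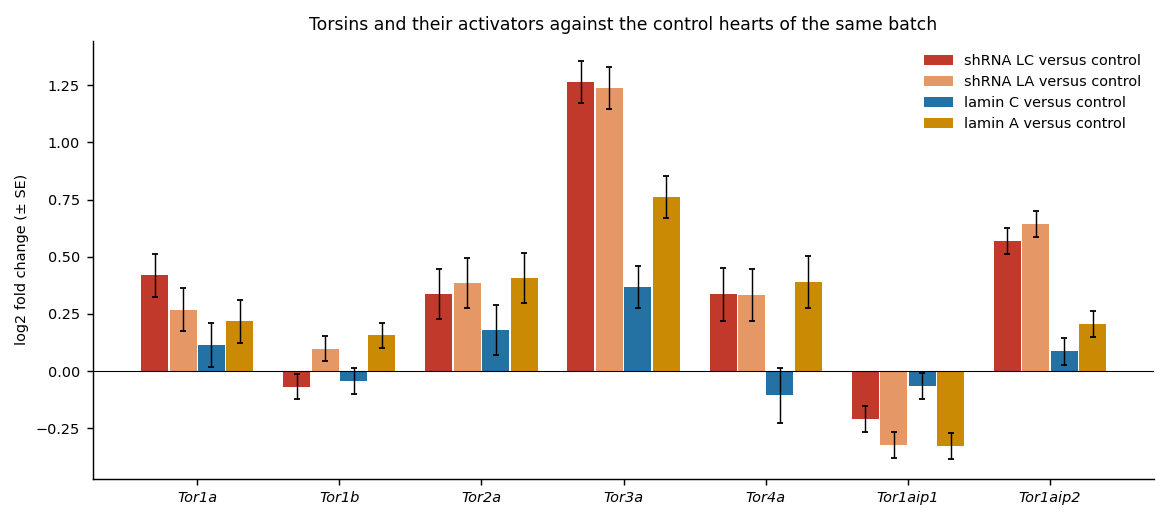
Log2 fold change by TMM, with SE (vertical axis), of the torsin genes and both activators against the control hearts of the same batch, in shRNA hearts of each batch and with each lamin. Tor3a and Tor1aip2 stand highest with shRNA (1.27 and 0.57 in batch LC) and Tor1aip1 is the only bar group below 0 in all 4 comparisons, which turns above 0 for shRNA and lamin C with library totals.

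Of 6 other LINC genes (Syne4, Sun3, Sun5, Spag4, Ccdc155 and Lrmp), 4 passed the filter, and 1 rose and 1 fell in the shRNA hearts of each batch. Over all genes tested, 33.3% were called higher and 29.6% lower in batch LC, and 32.4% and 29% in batch LA. Against shRNA, 28.4% of all genes were called lower with lamin C and 13.7% with lamin A. The counts of genes and markers here are to be read against these shares. Lrmp, which encodes a KASH-domain protein of lymphocytes, held 3.72, 3.51 and 2.68 CPM in the controls of batch LC and 9.46, 8.11 and 7.59 in the shRNA hearts (1.34 ± 0.14, edgeR adjusted p = 4.84e-08), and rose by 1.19 ± 0.13 in batch LA. It fell with lamin C (-0.78 ± 0.13) and with lamin A (-0.42 ± 0.12). Markers of T and natural killer cells moved the same way: 7 of 7 were called higher with shRNA in each batch, with a median of 2.73 and 2.43, and 4 of 7 lower with either lamin. Their summed level was 0.947 to 1.43 CPM in controls, 8.05 to 11.2 with shRNA and 4.56 to 5.295 with lamin C, and 1.02 to 2.02, 7.46 to 11.2 and 3.52 to 4.503 in batch LA, and none of the 7 was at 0 throughout a group. This was not particular to them. Of 10 macrophage markers, 10 were called higher with shRNA in each batch, 10 lower with lamin C and 6 lower with lamin A. Of 10 fibroblast markers, 9 were called higher with shRNA in each batch, 9 lower with lamin C and 3 lower with lamin A. Of 4 B cell markers, 1 was called higher in batch LC and 1 lower in batch LA. The part of these cells in the Lrmp values was not tested. Sun3, a SUN protein of the testis, was called lower in both batches, but from 12 to 21 counts per control library to 7 to 11 in batch LC and from 7 to 21 to 2 to 6 in batch LA, near the limit that 3 counts set.

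Of 11 partners on the nuclear side, 3 rose and 3 fell in the shRNA hearts of batch LC, and 2 rose and 2 fell in batch LA, shares no larger than those over all genes (33.3% higher and 29.6% lower in batch LC, 32.4% and 29% in batch LA). With library totals 9 were called higher and 1 lower in batch LC, and 10 and 1 in batch LA. Under that scaling most of the 17876 genes tested were called higher too: 10429 higher and 2415 lower in batch LC, and 10637 and 2270 in batch LA. Tmem201, the inner membrane protein SAMP1 that binds LINC complexes, held 134, 131 and 123 CPM in the controls of batch LC and 47.8, 52.8 and 49.98 in the shRNA hearts (-1.36 ± 0.07, edgeR adjusted p = 2.05e-12). It rose with lamin C (1.06 ± 0.07) and with lamin A (0.64 ± 0.07), to 99.0 to 113 and 74.8 to 83.6 CPM. Tmem43, the inner membrane protein LUMA, went the other way, with 28.7, 29.3 and 31.8 CPM in controls and 74.4, 70.4 and 78.0 in shRNA hearts (1.31 ± 0.07, edgeR adjusted p = 7.45e-12), and fell with lamin C (-1.05 ± 0.07) and lamin A (-0.52 ± 0.07). Emd, the emerin that binds lamin A and the SUN proteins, stood at 0.03 ± 0.09 and 0.12 ± 0.09 against control in batches LC and LA (edgeR adjusted p = 0.756 and 0.256). Lmnb1, lamin B1, rose by 0.36 ± 0.15 and 0.65 ± 0.15 in the shRNA hearts (edgeR adjusted p = 0.0472 and 0.000902). Tmem201 and Tmem43 changed more with shRNA than any of the 7 genes, and they kept sign and call with library totals.

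Of 15 partners on the cytoplasmic side, 4 rose and 6 fell in batch LC, and 5 rose and 6 fell in batch LA, to be read against the same shares over all genes. With library totals 11 were called higher and 3 lower in each batch, where 10429 of 17876 genes were called higher in batch LC and 10637 in batch LA. Fhod3, a formin that builds sarcomeric actin, held 377, 370.5 and 301 CPM in the controls of batch LC and 148, 159 and 176 in the shRNA hearts (-1.12 ± 0.09, edgeR adjusted p = 1.96e-09). It rose with lamin C (0.77 ± 0.09, edgeR adjusted p = 5.56e-07), and with lamin A stood at 0.18 ± 0.09 (edgeR adjusted p = 0.148); the difference of the lamin effects was 0.59 ± 0.13 (edgeR adjusted p = 0.00274). Pcnt and Akap6, which encode scaffolds of the microtubule-organizing centre that muscle carries at the nuclear envelope, fell by 1.17 ± 0.10 and 0.61 ± 0.06 on the log2 scale in batch LC. Pcnt rose by 0.86 ± 0.10 with lamin C and 0.33 ± 0.10 with lamin A. Kif5b, the heavy chain of kinesin-1, and Des, the intermediate filament desmin, rose by 0.63 ± 0.08 and 0.91 ± 0.09 in the shRNA hearts of batch LC.

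Across the 18 libraries, the genes whose log2 CPM ran most like each of the 7 were Foxn3 and Fhod3 for Sun1 (Pearson r of 0.97 each), Pnpla2 (0.98) and Trabd2b (0.97) for Sun2, Zc3h6 (0.94) and Alpk2 (0.93) for Syne1, Brd3 (0.96) and Ppp1r12b (0.94) for Syne2, Rbmx2 (0.93) and Wdr3 (0.93) for Tor1a, and the lincRNA Gm19277 (0.96) and Cbx7 (0.94) for Tor1aip1. For Syne3 they were Clock (0.89) and Afap1 (0.88). These libraries share groups, batches and scaling factors, so the values are descriptions. Among the 7 themselves, r was 0.87 between Sun1 and Sun2, 0.87 between Sun1 and Syne2, 0.51 between Sun1 and Syne1, -0.82 between Sun1 and Tor1a and -0.67 between Tor1a and Tor1aip1.

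The match of Syne3 with Clock, a core gene of the circadian clock, followed library and batch as well as group. Clock held 27.2 and 30.2 CPM in the 2 controls of batch LC that were low in Syne3, and 53.3 in control library 3, where Syne3 stood at 5.12. It held 43.7, 42.7 and 41.6 CPM in the shRNA hearts of that batch and 28.7, 30.7 and 31.8 with lamin C. In batch LA all 9 libraries held 50.3 to 58.8 CPM of Clock, and Syne3 there ranged from 3.99 to 6.82 CPM. Arntl differed in the same way, at 5.25 to 5.73 CPM in the shRNA hearts of batch LC, 1.28 to 2.26 with lamin C, and 21.4 to 35.7 in batch LA. No source used here gives the time of day at which hearts were taken, and its part in the Syne3 values was not tested.

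**Figure D5:**
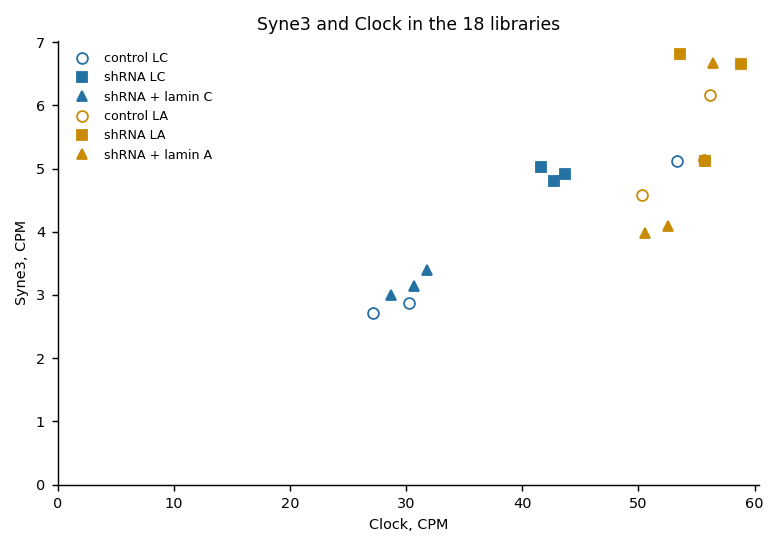
Syne3 against Clock, both in CPM scaled by TMM, with 1 point for each of the 18 libraries, blue for batch LC and yellow for batch LA. Control library 3 of batch LC (Clock 53.3, Syne3 5.12) lies with the libraries of batch LA, away from its 2 fellow controls near Clock 27.2 to 30.2 and Syne3 2.71 to 2.88.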

How the data were processed

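RNA sequencing gave 18 libraries of mouse heart apex, 3 in each of 6 groups taken from the labels, with no sample column left out. The counts were deposited by the authors as whole reads per gene, unscaled. FPKM, also deposited by the authors, equal each count divided by gene length in kilobases and by an adjusted library size, as the values show. Per the submitters' processing notes, reads were handled on mm10 with HISAT2 (2.0.5), StringTie (1.3.3b), featureCounts (1.5.0-p3) and DESeq2 (1.20.0), whose roles are not stated.

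In R 4.3.3, edgeR 4.0.16 fitted the counts by quasi-likelihood (glmQLFit, glmQLFTest): TMM factors, filterByExpr, all 18 libraries in 1 fit of 6 groups, 12 residual degrees of freedom and Benjamini-Hochberg adjustment over 17876 genes. Genes were called at an adjusted p under 0.05. The biological coefficient of variation was 9.13%. At 3 counts a gene stood at 0.0622 to 0.108 CPM. Replicates differed by a chi-square per degree of freedom of 6.38 to 43.4, so none was a duplicate. The labels say nothing of litters or cages, so p-values measure the spread between these samples. The script was tested on simulated data.

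Alternatives were DESeq2 1.42.0, RLE size factors, library totals, removal of mitochondrially encoded genes, no filter, limma-trend (limma 3.58.1) on log2(FPKM + 1) or log2(FPKM + 0.1), only the groups compared, a replicate block, and each library left out. The members and lists were chosen with earlier results of these data known. Other genes are named where they belong to the pathway lists, or are the 2 with the highest Pearson r to a member in log2 CPM (prior count 2). Annotation came from GENCODE on GRCm38 and promoter windows from RefSeq.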

Additional observations from a re-analysis of the deposited data

Results flagged for a closer look

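These results were singled out because the effect of lamin C differed from that of lamin A by a test of the difference itself, with edgeR. Each lamin was in 1 batch and Lmna counts differed between them, so lamin, amount and batch cannot be told apart. For the change from shRNA hearts, lamin C minus lamin A, the log2 difference was 0.38 for Sun1 and 1.21 for Lmna. Among partner genes it was 0.59 for Fhod3, 0.53 for Pcnt and -0.40 for Kif5b on the cytoplasmic side, and -0.53 for Tmem43, 0.42 for Tmem201 and 0.27 for Lbr on the nuclear side. Among the torsins it was -0.42 for Tor3a and -0.50 for Tor4a.

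For the change from control hearts, lamin C minus lamin A, the difference was 0.30 for Sun1, 0.26 for Tor1aip1 and 1.16 for Lmna. It was 0.50 for Fhod3, 0.46 for Pcnt, -0.43 for Kif5b and -0.41 for Plec, the cross-linker plectin. It was -0.49 for Tmem43, 0.36 for Tmem201 and -0.50 for Tor4a. Sun3 stood at 2.91, from 1 to 3 counts per library with lamin A and 15 to 22 with lamin C, and a fitted value at such counts depends on the prior count. The difference from shRNA and that from control share the lamin libraries, so they are not independent.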

How the results depend on the processing

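Scaling by library totals changed the most. It gave 3 members called higher and 0 lower in shRNA against control of batch LC (main 1 and 5), 2 and 0 in batch LA (main 1 and 5), 0 and 4 for lamin C against shRNA (main 4 and 2), 0 and 4 for lamin A against shRNA (main 0 and 0), 1 and 0 for lamin A against control (main 0 and 5), and 0 higher for the difference from control (main 2). Signs turned with it in shRNA against control of batch LC for Syne1 (0.17), Tor1aip1 (0.22) and Lemd3 (0.21). In batch LA they turned for Sun1 (0.065), Sun2 (0.028), Syne1 (0.014), Syne2 (0.034), Tor1aip1 (0.12) and Lbr (0.23). For lamin C against shRNA they turned for Syne1 (-0.31), Syne2 (-0.042), Tor1aip1 (-0.17) and Lbr (-0.014), and for lamin A against shRNA for Sun1 (-0.20), Sun2 (-0.041), Syne1 (-0.15) and Syne2 (-0.14). Against control they turned for Sun1 (0.043) and Tor1aip1 (0.046) with lamin C and for Syne3 (0.13) with lamin A, and in the difference from control for Syne1 (-0.0016). Library totals shift the median of all genes by the amounts given above. Which scaling is closer to the true levels was not tested.

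Other settings turned only uncalled values. For lamin A against shRNA, Tor1aip1 was 0.014 without mitochondrially encoded genes and 0.0095 with no filter, and Sun1 was -0.0054 with the compared groups only. In the difference from control Syne3 was 0.0059 and 0.025 with limma-trend on log2(FPKM + 1) and log2(FPKM + 0.1). Leaving out 1 library at a time gave ranges across 0 for Syne1 in lamin C against shRNA (-0.057 to 0.12). For lamin A against shRNA it did so for Sun1 (-0.034 to 0.045), Syne2 (-0.063 to 0.14), Tor1a (-0.14 to 0.059) and Tor1aip1 (-0.027 to 0.024). It did so for Syne3 in lamin C against control (-0.33 to 0.19), lamin A against control (-0.39 to 0.023) and the difference from control (-0.21 to 0.30). It also did for Sun2 (-0.11 to 0.019) and Lmna (-0.10 to 0.023) in the difference of the shRNA effect and for Syne1 (-0.11 to 0.063) in that of the lamin effect. Leave-one-out counts of members called higher ran from 1 to 2 for shRNA in batch LC, 0 to 1 in batch LA, 3 to 4 for lamin C against shRNA, 0 to 1 for lamin A against shRNA, 0 to 1 for lamin A against control, 1 to 2 for the difference of the lamin effect and 1 to 2 for the difference from control. Counts called lower ran from 4 to 5 for shRNA in batch LC, 1 to 2 for lamin C against shRNA, 0 to 1 for lamin A against shRNA and 0 to 1 for lamin C against control.

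With no filter, 2 members were called higher with shRNA in batch LC and 0 in batch LA, 1 (Syne1) lower for lamin C against control, and 1 higher in the difference from control. DESeq2, RLE size factors, removal of mitochondrially encoded genes and limma-trend at either pseudocount each called 1 member (Sun2) higher for lamin A against shRNA. DESeq2 and RLE called 1 (Syne1) lower for lamin C against control, and limma-trend at either pseudocount called 1 (Tor1a) higher for lamin A against control. With the compared groups only, Syne1 lost its call in shRNA against control of batch LC (adjusted p = 0.0761) and Tor1aip1 in lamin C against shRNA (adjusted p = 0.0824). With no filter Tor1aip1 lost its call there (adjusted p = 0.120) and in the difference from control (adjusted p = 0.0848), and Tor1a in shRNA against control of batch LA (adjusted p = 0.0669). Same-numbered libraries did not deviate together (correlations from -0.046 to 0.062). No pairing by number was seen, though 3 libraries a group cannot exclude a weak one. With the replicate block, 2 members were called higher with shRNA in batch LC (Syne3, adjusted p = 0.0488), 1 lower for lamin C against control (Syne1, adjusted p = 0.0319) and 1 higher in the difference from control, and Tor1aip1 lost its call for lamin C against shRNA (adjusted p = 0.0677). It changed no other member's call. Depth limits Syne3 most, at 82 to 294 counts per library.

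Over all genes, those called for lamin C against control fell from 2690 to 1507 without lamin C library 1 and 1752 without library 3. For the difference of the shRNA effect they went from 1 to 5 with DESeq2, 247 with no filter, 47 without control library 3 of batch LC, and 0 with the compared groups only or the block.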
